A study of Mus musculus with 41 samples.

Results

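The CpGs of a single amplicon in the last exon of *Klf2* were followed in bone marrow-derived macrophages (BMDMs) before and after stimulation. The members were chosen by position and by read number. They were the CpGs of mouse chromosome 8 between 74844677 and 74844924 (mm9) whose cytosine had at least 100 reads with C or T on the bisulfite-converted strand in every run at 0 h and 6 h. All 20 CpGs in the genome sequence of this interval passed, out of 83 CpGs at 12 loci that passed the same minimum in these samples. The locus was picked with its levels at both times already known. The levels and differences are therefore given as a description, and no test is used to support them.

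*Klf2* encodes Krüppel-like factor 2, a zinc-finger transcription factor that is known to restrain inflammatory gene expression in myeloid and endothelial cells and to maintain quiescence and trafficking of T cells. In mammalian DNA, methylation is found mostly at cytosines of CpG dinucleotides, and TET enzymes oxidize 5-methylcytosine (5mC) to 5-hydroxymethylcytosine (5hmC) and further products. Bisulfite sequencing (BS-seq) reads both 5mC and 5hmC as C. Unmodified cytosine, 5-formylcytosine and 5-carboxylcytosine are read as T. A level below is therefore the percentage of 5mC + 5hmC, and these bases cannot be told apart. The bases read as T cannot be told apart either.

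The series measured cytosine modification by amplicon sequencing in 41 samples, of which 6 were BMDMs and 35 were T cells. The BMDMs came from wild type mice of strain C57BL/6. Bone marrow cells had been differentiated with L929-cell-conditioned medium and M-CSF, and adherent cells were kept without stimulus (0 h) or treated for 6 h or 24 h. The stimulus is named KLA in the sample labels and in the culture methods, and elsewhere in the study lipopolysaccharide. The labels list 2 replicates per time, but the deposited files of both carried the name of 1 library, and they are taken here as a pair of sequencing runs, run 1 and run 2. With 1 library per time there was no replicate of a condition, and any difference between the times compares 2 libraries. The spread between cultures is not known.

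The *Klf2* amplicon was read at cytosines from 74844652 to 74844948, on the plus strand, which is the coding strand of the gene. The interval lies in exon 3 of 3 (chr8:74844643-74845555 in the GENCODE annotation), whose coding part ends at 74844815, before the stop codon. Numbered 1 to 20 in the direction of transcription, CpGs 1 to 11 lie in the coding part and CpGs 12 to 20 in the 3′ UTR. The coding part that was read, chr8:74844652-74844815 (mm9, plus strand), is shown because it holds the highest stretch and the 2 CpGs with the largest differences, with its 11 CpGs in capitals.

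Klf2 exon 3, coding part: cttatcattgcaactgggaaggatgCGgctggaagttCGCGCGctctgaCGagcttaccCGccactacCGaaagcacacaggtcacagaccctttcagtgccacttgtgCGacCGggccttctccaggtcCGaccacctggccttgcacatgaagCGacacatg

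Of these 11 cytosines, 5 stand at the first base of a codon, 1 at the second base and 5 at the third. The locus was dense in CpGs, with 6.73 per 100 bases of the 297 bases read, a GC content of 58.9% and a ratio of observed to expected CpGs of 0.777. The *Ccr7* locus came next in density among the loci used, with 4.52 CpGs per 100 bases.

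The median number of reads per *Klf2* CpG was 1086 in run 1 and 1515 in run 2 at 0 h, and 1180 in run 1 and 876 in run 2 at 6 h. The lowest was 788 reads, at CpG 1 in run 2 at 6 h, so no *Klf2* CpG lay near the minimum of 100. Over all loci, the CpG just inside the minimum had 101 reads in its shallowest run and a level of 79.0% at 0 h and 77.0% at 6 h, and the CpG just outside had 83 reads and levels of 67.3% and 67.6%. Both lie in *Ccr7*. The nearest CpGs outside the *Klf2* interval, 74 bases before its first CpG and 133 bases after its last, had 0 reads in all 4 runs.

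Bisulfite conversion at the locus was checked at 71 cytosines outside CpGs on the same strand. At 0 h, 0.172% of their reads were C in run 1 (95% Wilson interval 0.145 to 0.204%) and 0.171% in run 2 (0.148 to 0.198%). At 6 h the share was 0.189% in run 1 (0.162 to 0.221%) and 0.178% in run 2 (0.147 to 0.214%). These intervals overlapped between the times, and the shares lay far below the level of any *Klf2* CpG. Reads of PCR products without molecular identifiers are not independent molecules, so all intervals given here cover counting error only.

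The mean level over the 20 *Klf2* CpGs was 25.98% in run 1 and 24.6% in run 2 at 0 h. At 6 h it was 19.5% in run 1 and 17.9% in run 2. The mean of the runs was 25.3% at 0 h and 18.7% at 6 h, a difference of -6.57 percentage points (-6.49 in run 1 and -6.66 in run 2). Both runs at 6 h lay below both runs at 0 h, and the runs of 1 time lay less than 2 points apart. Because CpGs of 1 read are not independent, an interval for the difference was computed from the median number of reads per CpG rather than from all calls, and it ran from -8.94 to -4.18 points.

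The level was not even along the amplicon. At 0 h it ranged from 3.63% to 55.9% between CpGs, and at 6 h from 4.29% to 51.2%. CpGs 2, 3 and 4, which follow each other 2 bases apart, formed the highest stretch, with a mean of 53.7% at 0 h and 47.4% at 6 h. CpGs 7 to 12, the last 5 of the coding part and the first of the 3′ UTR, formed a low stretch with a mean of 9.49% at 0 h and 6.88% at 6 h. A further peak stood at CpGs 14 and 15 in the 3′ UTR, with a mean of 40.7% at 0 h and 33.4% at 6 h. At 0 h, 10 of the 20 CpGs were under 20% and 4 were over 40%. At 6 h, 14 were under 20% and 3 were over 40%.

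**Figure D1:**
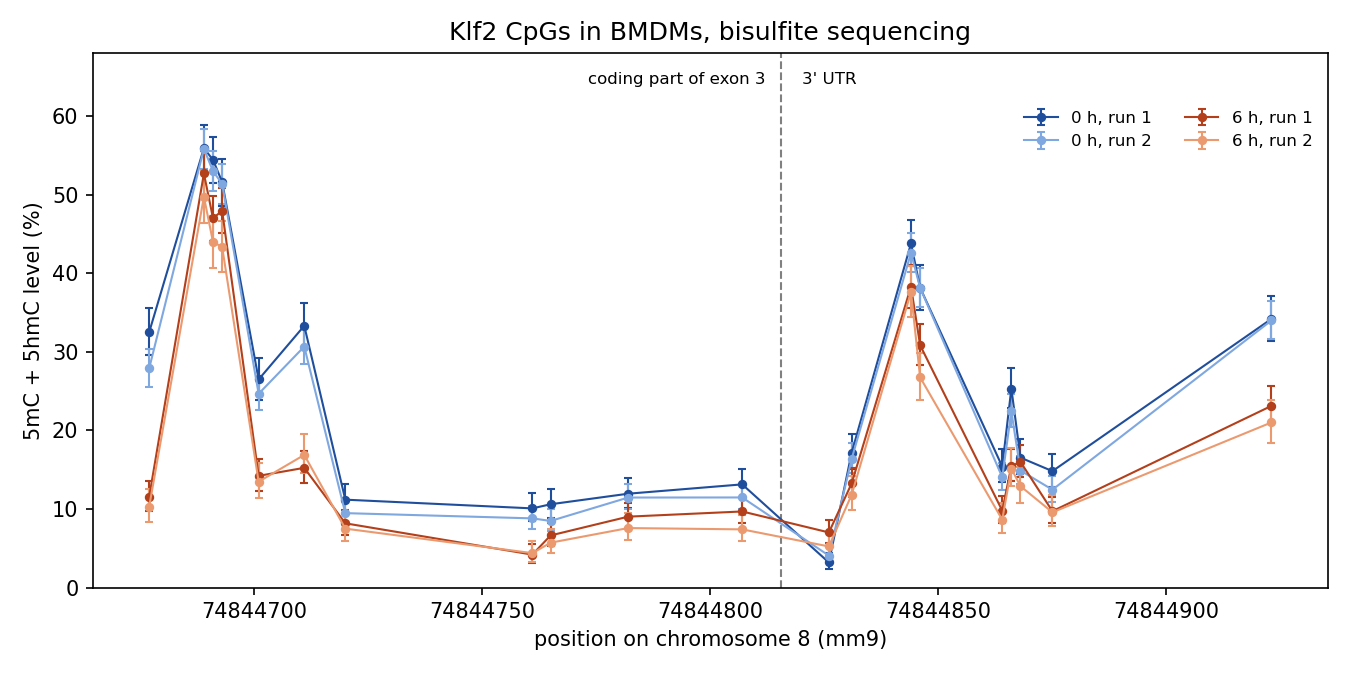
Level of 5mC + 5hmC in percent (vertical axis) at the 20 *Klf2* CpGs by position on chromosome 8 (horizontal axis, mm9), with 1 line per run, 95% Wilson intervals as bars and a dashed line at the end of the coding sequence. The 4 runs share the same peaks and low stretch, and the 6 h runs lie below the 0 h runs at 18 of the CpGs, most clearly at CpGs 1, 5, 6 and 20.

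The shape of this profile was shared by both times. Across the 20 CpGs, Pearson's r between the levels at 0 h and 6 h was 0.9501. Between run 1 and run 2 it was 0.997 at each time. These are descriptions across neighbouring CpGs that share the same reads, primers and library. CpGs a pair of bases apart could still differ. At 0 h, CpGs 16, 17 and 18, at 74844864, 74844866 and 74844868, had mean levels of 14.7%, 23.9% and 15.7%.

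CpG 1 (74844677) showed the largest fall. Its level was 32.5% in run 1 (29.5 to 35.5%) and 27.9% in run 2 (25.5 to 30.4%) at 0 h, and 11.5% in run 1 (9.74 to 13.6%) and 10.3% in run 2 (8.35 to 12.6%) at 6 h. The mean difference was -19.3 points, with an interval on the summed reads of -21.1 to -16.4. Its runs at 0 h also differed by more than those of any other *Klf2* CpG at that time, by 4.601 points. CpG 1 had the fewest reads of the *Klf2* CpGs in every run, 933 and 1313 at 0 h and 1049 and 788 at 6 h. At CpG 2 there were 1068 and 1503 reads at 0 h and 1160 and 877 at 6 h. The source of this shortfall was not tested.

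CpG 2 (74844689), only 12 bases further on, was the highest of the 20 at both times. Its level was 55.9% in run 1 and 55.8% in run 2 at 0 h, and 52.7% in run 1 and 49.7% in run 2 at 6 h. The mean difference of -4.67 points (interval -7.35 to -1.56) was thus far smaller than at its neighbour. CpGs 5 and 6, at 74844701 and 74844711, again differed more. CpG 5 had 26.5% and 24.7% in the runs at 0 h and 14.2% and 13.5% at 6 h. CpG 6 had 33.3% and 30.7% at 0 h and 15.2% and 16.9% at 6 h. Their mean differences were -11.7 and -15.9 points, so that the CpGs on either side of the peak moved more than the peak itself.

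CpG 8 (74844761) was the lowest of the 20 at 6 h. It had 10.1% in run 1 and 8.80% in run 2 at 0 h, and 4.19% in run 1 and 4.38% in run 2 at 6 h, a mean difference of -5.15 points (interval -6.48 to -3.63). In relative terms its level at 6 h was 0.454 times that at 0 h, against 0.361 times at CpG 1 and 0.916 times at CpG 2. The remaining coding CpGs of the low stretch, numbers 7, 9, 10 and 11, had mean differences between -3.75 and -2.49 points.

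CpG 12 (74844826), the first in the 3′ UTR, was the lowest of the 20 at 0 h and the only one with a higher level at 6 h. It had 3.19% in run 1 (2.31 to 4.39%) and 4.07% in run 2 (3.20 to 5.16%) at 0 h, and 7.01% in run 1 (5.72 to 8.58%) and 5.23% in run 2 (3.95 to 6.91%) at 6 h. The mean difference was 2.50 points (interval 1.33 to 3.86). In run 2 alone the rise was 1.17 points and the intervals of the times overlapped, so it rests largely on run 1.

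In the 3′ UTR, the largest fall was at CpG 20 (74844923), the last of the amplicon. It had 34.2% and 34.0% in the runs at 0 h and 23.1% and 21.002% at 6 h, a mean difference of -12.0 points (interval -14.4 to -9.23). CpG 18 showed the smallest difference of all 20, -1.26 points, with an interval of -2.93 to 1.22 that holds 0. Its runs overlapped between the times, with 16.5% and 14.9% at 0 h and 15.99% and 12.9% at 6 h. For this CpG a difference was not detectable at this depth.

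Coding and 3′ UTR CpGs both had lower means at 6 h. The 11 coding CpGs had a mean level of 28.3% and 26.6% in the runs at 0 h and of 20.6% and 19.1% at 6 h. The 9 CpGs of the 3′ UTR had 23.2% and 22.1% at 0 h and 18.2% and 16.5% at 6 h. The mean differences were -7.62 points for the coding CpGs and -5.30 points for the 3′ UTR, and their medians, -5.15 and -5.24, lay close together.

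Calls were made by size, as a mean difference of at least 10 points with the same sign in both runs. Of the 20 *Klf2* CpGs, 4 were called lower at 6 h, which were CpGs 1, 5, 6 and 20. Over all 83 CpGs tested the share called lower was 4.82%, which is these 4 CpGs and no other. The share called higher was 0%, with none in *Klf2*. At 18 *Klf2* CpGs both runs at 6 h lay below both runs at 0 h, against 55.4% of all CpGs tested, and at 1 CpG both lay above, against 27.7%. Since the locus was picked with this contrast known, nothing further is read from these counts. The number called depended on the minimum difference. At 5 points, 11 *Klf2* CpGs were called lower and 0 higher, against 22.9% of all 83 CpGs called lower and 3.61% higher, so that 11 of the 22 calls lay at other loci. At 20 points no CpG of any locus was called.

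Going by the names of their files, the runs share a library, and with it the culture, the bisulfite treatment and the PCR, so the difference between them measures none of these. The median size of the difference between run 1 and run 2 over the *Klf2* CpGs was 1.39 points at 0 h and 1.44 points at 6 h, with a largest value of 4.60 points at either time. The median size of the difference between the times was 5.20 points, which these runs cannot set against the spread between libraries. Run 2 lay below run 1 at 19 CpGs at 0 h and at 18 CpGs at 6 h, although the interval of the difference between runs left out 0 at only 1 CpG at 0 h and 2 at 6 h. This small shift between the runs was alike at both times, and the mean difference between the times was the same in both runs to less than 1 point.

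The *Klf2* amplicon had the lowest mean level at 0 h of the 12 loci. The loci nearest to it were those near *Il1b*, *Batf* and *Il6*, which encode the cytokine interleukin-1β, a transcription factor of the AP-1 family and the cytokine interleukin-6. At the *Il1b* locus, the mean over 5 CpGs was 45.6% and 43.5% in the runs at 0 h and 45.0% and 46.2% at 6 h, a difference of 1.08 points. The *Batf* locus, with 7 CpGs, had 56.3% and 57.0% at 0 h and 57.5% and 57.1% at 6 h, a difference of 0.702 points. The *Il6* locus, with 5 CpGs, had 72.6% and 72.3% at 0 h and 72.6% and 73.2% at 6 h, a difference of 0.445 points. The runs of the times overlapped at *Il1b* and *Il6*, and at *Batf* the runs at 6 h lay slightly above those at 0 h, whereas at *Klf2* they lay below.

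Over the 63 CpGs of the other 11 loci, the median difference was -0.416 points and the range was -8.43 to 7.76. The median over the 20 *Klf2* CpGs was -5.20 points, and over all 83 it was -1.49. After *Klf2*, the lowest mean differences belonged to *Ccr7* (-3.17 points, 13 CpGs), *Foxo1* (-2.83 points, 5 CpGs) and *Lef1* (-2.81 points, 5 CpGs), which were singled out after their values were seen. The other 8 loci had mean differences between -1.24 and 2.17 points. These 8, which include *Il1b*, *Batf* and *Il6*, were matched to the study's bisulfite primers. *Klf2*, *Ccr7*, *Foxo1* and *Lef1* matched none and were named by the annotated gene. The lowest mean differences thus fell on the loci without a primer match. Whether the fall at *Klf2* is particular to it or shared by that set was not tested. The level at 0 h and the number of CpGs differed between *Klf2* and every other locus, and their part in the difference was not tested.

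**Figure D2:**
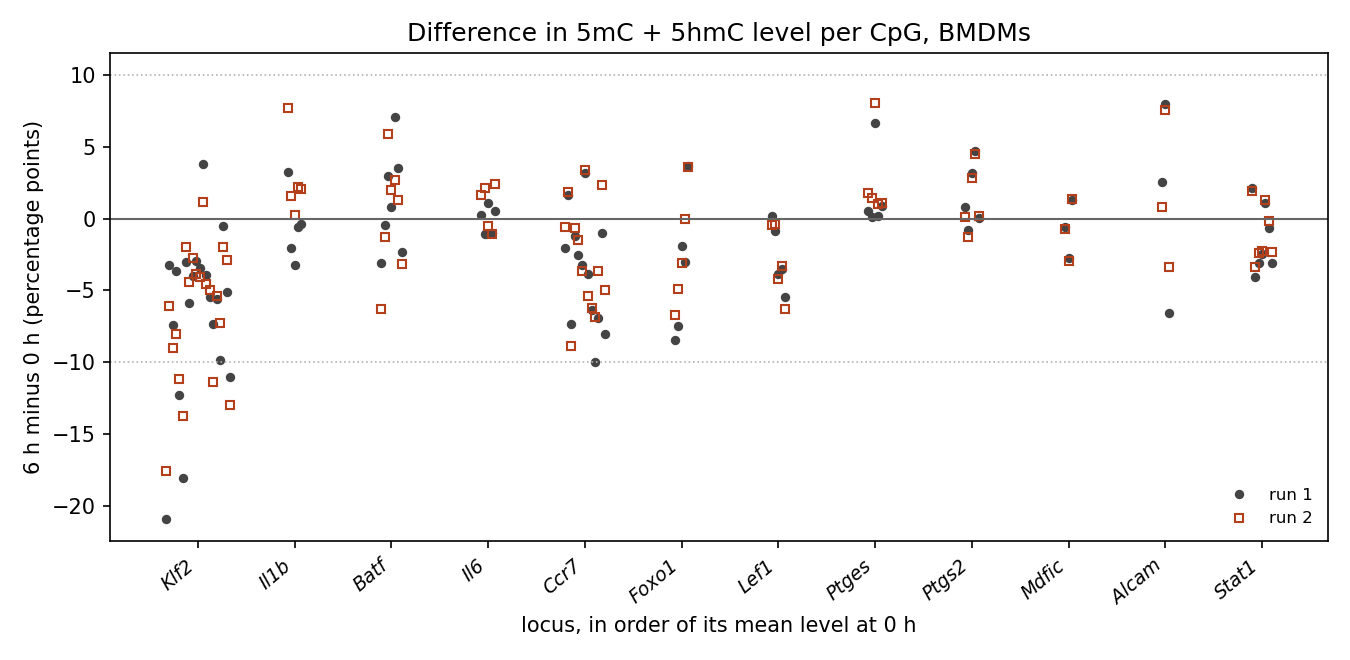
Difference in 5mC + 5hmC level between 6 h and 0 h in percentage points (vertical axis) for each of 83 CpGs, by locus in order of the mean level at 0 h (horizontal axis), with run 1 as filled circles, run 2 as open squares and dotted lines at 10 points in either direction. *Klf2* holds all CpGs that lie beyond the lower dotted line in both runs, which are CpGs 1, 5, 6 and 20, and CpG 12 is its only CpG above 0. *Klf2* CpG 15 lies beyond that line in run 2 alone, and 1 *Ccr7* CpG in run 1 alone.

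At 24 h the *Klf2* reads gave no level. The median number of reads at cytosines outside CpGs was 6463 in run 1 and 5939 in run 2 on the plus strand, but 99.8% of these reads were C in run 1 and 99.9% in run 2, against 0.189% or less at 0 h and 6 h. The minus strand, which a strand-specific bisulfite amplicon does not yield, had 2150 and 1968 reads at the median, of which 99.9% were C in both runs. The 24 h samples thus held reads of this locus that had not been converted, and whether the difference at 6 h lasted, grew or was lost by 24 h could not be measured. The names of the files deposited for 24 h, though not the sample labels, carry both the abbreviation for bisulfite and that for pyridine borane, a treatment that leaves unmodified cytosine, 5mC and 5hmC as C and turns 5-formylcytosine (5fC) and 5-carboxylcytosine (5caC) to be read as T. The labels call the samples bisulfite, and which treatment these reads had is not known. At 0 h and 6 h, the minus strand was read only in run 1 at 0 h, at 49 cytosines with 1 read each, and all 39 of these outside CpGs were C. The *Ccr7*, *Foxo1* and *Lef1* loci held unconverted reads at 24 h as well. With *Klf2*, these are the loci used that matched no bisulfite primer of the study.

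The *Klf2* locus was hardly read outside the macrophages. Of the 35 T cell samples, 33 had no read with C or T at any cytosine of the interval, and the highest number at a cytosine in the other 2 was 5. No level of *Klf2* in T cells can be given.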

How the data were processed

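DNA had been treated with bisulfite, amplified by PCR and sequenced. The authors mapped reads to mm9 with BSMAP, whose version is not given in the sources used here, and deposited counts of C and of C or T reads for each cytosine, without normalization. Levels were computed as 100 times C over C or T reads, with at least 100 reads in every run, as unweighted means over CpGs and over the 2 runs. All 34208 cytosines listed in the macrophage samples matched the reference genome (NCBIM37, the assembly of mm9) and the gene was placed by its GENCODE annotation. Loci were split at gaps over 500 bases and named by the study's bisulfite primers or, without a match, by the annotated gene. Intervals were Wilson (95%) for levels and Newcombe for differences. The size rule and the tests on reads were tried on simulated data. Reads there were drawn independently and without a spread between libraries, so this check bears on counting error only. CpGs described in full were the highest and lowest at either time and the largest rise and fall, and loci for comparison were the 3 nearest in level at 0 h. CpGs 5, 6, 16 to 18 and 20 were added after their values were seen. The members and lists were chosen with earlier results of these data known. Python 3.11.15, scipy 1.17.1 and statsmodels 0.14.6 were used.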

Additional observations from a re-analysis of the deposited data

Results flagged for a closer look

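A signal appeared in the 24 h reads, which the comparison of levels does not use. In these unconverted reads of the *Klf2* amplicon, the mean share of T at the 20 CpG cytosines of the plus strand was 2.21% in run 1 and 2.04% in run 2. At the 71 other cytosines of that strand it was 0.154% in run 1 and 0.0841% in run 2. The share was over 0.5% at 20 of 20 CpGs in both runs, and at 3 of the 71 other cytosines in run 1 and 1 in run 2. On the minus strand the mean share at CpGs was 1.62% in run 1 and 1.51% in run 2, against 0.136% and 0.0762% at other cytosines. There, in either run, 18 of 20 CpGs and 3 of the 64 other cytosines were over 0.5%, and the highest share at another cytosine was 1.89% in run 1 and 1.35% in run 2, so single cytosines outside CpGs reached the range of the CpGs. The highest share on the plus strand was 3.52%, at CpG 15, and the lowest 0.550%, at CpG 4, as means of the runs. At 0 h and 6 h, unconverted *Klf2* reads were too few for such a share, with at most 1 read at a cytosine of the minus strand. The names of the files deposited for 24 h, though not the sample labels, also carry the abbreviation for pyridine borane, and T in reads so treated would mark 5fC and 5caC. Whether these reads had that treatment, bisulfite or none is not known, so the share is not given as a level of any modified base, and the source of the T reads was not tested.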

How the results depend on the processing

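The mean difference at *Klf2* was -6.34 points with the reads of the runs summed, -6.43 with a mean weighted by reads and -6.60 after correction for non-CpG cytosines, and leaving out either run gave -6.66 to -6.49. A minimum of 20 or 500 reads left all 20 CpGs in place and so returned the main value. Alternatives added after seeing the data gave -5.91 points without CpG 1, -7.62 with the coding CpGs alone and -5.30 with the 3′ UTR alone. An exact permutation test that took the runs as separate replicates, two-sided, could give no p below 0.333, so it says nothing about the difference. The number of *Klf2* CpGs called was 4 in the main rule, 11 with a minimum of 5 points (22 over all loci) and 0 with 20 points (0 over all loci). It was 4 with Fisher's exact test and also 4 with the run number as replicate block (Cochran-Mantel-Haenszel test), each with the 10 points kept and no call at another locus. These tests take reads as independent molecules and were run on differences known when the locus was picked. By adjusted p alone, Fisher's test called 19 of the 20 *Klf2* CpGs and 38 of the 63 others (68.7% of all 83), so the count of 4 was set by the 10 points. By the size rule, 4 *Klf2* CpGs and 1 in *Ccr7* were called with run 1 alone, and 5 *Klf2* CpGs and no other with run 2 alone. Depth gave each *Klf2* CpG a Wilson interval at most 6.60 points wide in a run. The runs are taken to share a library, and so they say nothing of the spread between cultures.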

Other observations

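The T reads at 24 h had a profile along *Klf2* that was shared by the runs. Across the 20 CpGs of the plus strand, Pearson's r between run 1 and run 2 was 0.944. Between the strands it was 0.312 in run 1 and 0.155 in run 2. With the bisulfite level at 0 h it was 0.0173. These are descriptions across CpGs that share library and reads. At the other loci with unconverted reads, the mean share of T at plus strand CpGs in run 1 was 1.43% at *Ccr7*, 2.29% at *Foxo1* and 2.04% at *Lef1*.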
